A study of Mus musculus with 15 samples.

Results

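The 7 genes described here (Srd5a1, Akr1c14, Cyp7b1, Cyp19a1, Star, Tspo and Sts) deliver cholesterol to steroid synthesis or make and break down steroids that act in the brain. They were taken by name from the count tables of 15 libraries of single nuclei, in which 6 of the 7 had a row among 32285 features, and Sts, the steroid sulfatase gene, was not analysed here. The libraries came from micropunches of the dorsal hippocampal formation (dHF) of female wild-type C57BL6/J mice, 1 library per mouse. The groups were 6 virgin nulliparous (NP) mice, 4 dams with reproductive experience, labelled ControlPP and called control RE here, and 5 dams labelled StressPP and called stress RE. Control and stress RE dams had both bred, given birth and nursed a litter to weaning, and stress RE dams had in addition been parted from their pups every day with limited nesting material in the later stretch of lactation. NP mice were age-matched to the dams. No group carried a transgene or received a drug by the labels, and neither the age in weeks nor the stage of the oestrous cycle is given in the labels. Batch 1 held 2 NP mice and 1 stress RE mouse, and batches 2 and 3 held 2 mice of each group.

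Steroids made within the nervous system, called neurosteroids, begin with cholesterol that is moved to the inner mitochondrial membrane. STAR, the steroidogenic acute regulatory protein, takes part in that transfer, and TSPO is a protein of the outer mitochondrial membrane that binds cholesterol and is widely used as a marker of reactive glia. SRD5A1, a 5-alpha-reductase, turns progesterone, testosterone and deoxycorticosterone into 5-alpha-reduced steroids, and AKR1C14, a 3-alpha-hydroxysteroid dehydrogenase, turns 5-alpha-dihydroprogesterone into allopregnanolone, which acts on the GABA-A receptor and whose level is known to climb in pregnancy and drop at birth. CYP7B1 hydroxylates oxysterols and steroids such as dehydroepiandrosterone and pregnenolone, and CYP19A1 is aromatase, which makes oestrogens from androgens.

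The stretches of 250 bases before the RefSeq start sites of Srd5a1 and Akr1c14 are printed because these genes encode successive enzymes of the allopregnanolone pathway and had their highest level in different classes of nuclei. The Srd5a1 stretch lies on the minus strand at chr13:69611464-69611713 of GRCm38.p6, and capitals mark the GC box GGGCGG, searched on both strands. The Akr1c14 stretch lies on the plus strand at chr13:4059341-4059590 of the same build and holds neither GGGCGG nor TATAAA on either strand. It lies inside the annotated gene (chr13:4049011-4090688), so the start it precedes is an internal one. The Srd5a1 stretch lies just outside its gene (chr13:69573449-69611442), so the 2 stretches are not alike in place.
Srd5a1: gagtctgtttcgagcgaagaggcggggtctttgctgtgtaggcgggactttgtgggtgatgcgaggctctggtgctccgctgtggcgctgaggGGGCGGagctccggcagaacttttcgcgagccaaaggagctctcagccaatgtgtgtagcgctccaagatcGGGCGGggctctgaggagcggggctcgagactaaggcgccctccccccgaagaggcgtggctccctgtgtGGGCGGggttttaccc
Akr1c14: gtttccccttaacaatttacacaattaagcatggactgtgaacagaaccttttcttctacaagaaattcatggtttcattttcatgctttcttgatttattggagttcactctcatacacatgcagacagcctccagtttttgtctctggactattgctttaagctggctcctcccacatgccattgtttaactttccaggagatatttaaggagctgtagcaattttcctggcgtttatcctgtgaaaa
The Srd5a1 stretch held 3 GC boxes and 20 CpG dinucleotides at 64.8% G plus C, whereas the Akr1c14 stretch held 1 CpG at 38.8% G plus C. Of 32851 such stretches in the RefSeq table, 32.74% held at least 1 GC box and 8.469% held 3 or more, with a median of 6 CpG. Cyp19a1 had 3 listed starts, at which 2, 2 and 0 matches to TATAAA were found, against 12.37% of all stretches with any match. In 1 of them the 2 matches overlap on opposite strands. These letter matches are descriptions of sequence and no binding was measured.

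The 15 libraries held 40602582 to 96211264 unique molecular identifiers (UMIs) each, with 3993 to 8754 UMIs in the median nucleus. Of 134019 barcodes, 123913 were kept, and a pair of libraries shared 6 to 47 barcode sequences, at most 0.4612% of the smaller library. Among 34 clusters with 50 nuclei or more, 31 took the name of a cell class from marker genes and 3 stayed unnamed, which makes 26 classes. Dentate granule neurons carried all 7 of their markers (Prox1, Dsp, C1ql2, Calb1, Stxbp6, Trpc6 and Glis3), as the label of hippocampal tissue would have it. Thalamic, habenular and striatal-type neurons and choroid plexus epithelium were in the punches as well. Levels are CPM, the UMIs of a gene as a share of all UMIs of a class in a mouse, scaled to a total of 1000000. The mean ± SD covers each mouse that had 10 or more nuclei in that class. Classes come from the same nuclei, so levels between classes are described with no test, and levels of different genes are not compared.

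Star, the cholesterol transfer gene (chr8:25806555-25815982, plus strand), was counted in all 26 classes. Its class means ran from 4.26 CPM ± 1.63 (SD, n = 15) in CA2 pyramidal neurons to 20.1 CPM ± 18.7 (n = 15) in Cajal-Retzius neurons, which rest on 50 UMIs. Dentate granule neurons had 11.6 CPM ± 4.03 (n = 15, 3667 UMIs), oligodendrocytes 12.3 CPM ± 4.31 (1014 UMIs) and astrocytes 11.0 CPM ± 4.27 (385 UMIs). CA1 and CA3 pyramidal neurons had 7.12 CPM ± 3.37 and 5.99 CPM ± 2.78, and thalamic excitatory neurons 6.13 CPM ± 2.25. No pair of neighbours in the order of classes was apart by more than the larger of their SDs, and the first class stood 4.71-fold above the last. Steps between neighbours among 26 classes are small. Classes farther apart in the order, such as CA2 pyramidal and dentate granule neurons, differed by more than the SD of either. The share of nuclei with a Star UMI was 9.34% (95% exact interval 9.04 to 9.65%) of dentate granule neurons at a median of 8034 UMIs and 3.22% (3.02 to 3.43%) of oligodendrocytes at 2492 UMIs. With nuclei of at least 1000 UMIs thinned to 1000 UMIs these shares were 1.28% and 1.31%. Thinning left out 1794 dentate granule neurons and 486 oligodendrocytes with fewer UMIs, here and for the other genes. These intervals, like the other counting intervals here, cover counting error only.

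Tspo, the outer membrane gene (chr15:83563592-83574203, plus strand), was highest in cells of vessels, borders and ventricles. Endothelial cells had 25.2 CPM ± 15.3 (SD, n = 15, 99 UMIs), border-associated macrophages 23.2 CPM ± 28.3 (n = 14, 22 UMIs), choroid plexus epithelium 15.9 CPM ± 9.28 (n = 13, 77 UMIs) and vascular leptomeningeal cells 9.46 CPM ± 6.02 (n = 15, 50 UMIs). These classes overlapped widely among mice, with no neighbours apart by more than the larger of their SDs. Microglia, the resident macrophages of the brain, had 5.76 CPM ± 2.86 (n = 15, 61 UMIs) and astrocytes 2.32 CPM ± 1.45 (82 UMIs). Dentate granule neurons had 0.655 CPM ± 0.359 and thalamic excitatory neurons, the lowest class, 0.328 CPM ± 0.210. Endothelial cells were above microglia in 13 of 15 mice and above dentate granule neurons in 14 of 15 mice. The other mouse, an NP mouse of batch 2, had no Tspo UMI in endothelial cells. A Tspo UMI was found in 7.73% (95% exact interval 6.26 to 9.41%) of endothelial nuclei at a median of 2300 UMIs and in 1.22% (0.932 to 1.58%) of microglia at 2054 UMIs. In thalamic excitatory neurons at 14510.5 UMIs the share was 0.429%.

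Srd5a1, the 5-alpha-reductase gene (chr13:69573449-69611442, minus strand), had its highest class mean in oligodendrocytes, the myelin-forming cells, at 14.0 CPM ± 1.69 (SD, n = 15, 1139 UMIs). Newly formed oligodendrocytes had 12.2 CPM ± 9.31 (56 UMIs), and their precursor cells 6.34 CPM ± 2.89 (96 UMIs). Among neurons, CA3 pyramidal neurons had 10.9 CPM ± 4.07, dentate granule neurons 9.48 CPM ± 3.65 (3080 UMIs) and CA1 pyramidal neurons 8.75 CPM ± 3.45. Astrocytes were at 4.54 CPM ± 2.07, thalamic excitatory neurons at 4.09 CPM ± 1.01, microglia at 2.49 CPM ± 1.27 and habenular neurons at 1.89 CPM ± 2.17 (n = 12). Oligodendrocytes were above CA3 neurons in 11 of 15 mice, above dentate granule neurons in 12 of 15 mice, above CA1 neurons in 14 of 15 mice and above astrocytes in 15 of 15 mice, in the last case by a median of 2.95-fold. No neighbouring classes were apart by more than the larger of their SDs.

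Within oligodendrocytes, Srd5a1 was at 19.1 CPM ± 10.5, 13.7 CPM ± 4.51 and 11.8 CPM ± 2.19 in the 3 clusters (SD, n = 15 mice each). Of the 2 clusters of GABAergic neurons, the smaller, of 324 nuclei, had 14.2 CPM ± 6.09 of Srd5a1 (n = 5 mice with enough nuclei) and the larger 5.20 CPM ± 1.54 (n = 15). Dentate granule neurons fell into a deep cluster at 9.68 CPM ± 3.59 (median 8821 UMIs) and a shallow one at 4.21 CPM ± 1.99 (median 1624 UMIs). A Srd5a1 UMI was in 7.76% of dentate granule neurons and 3.56% of oligodendrocytes, while among nuclei thinned to 1000 UMIs the shares were 1.05% and 1.30%. Srd5a1 overlaps Nsun2 (60923 UMIs) on the opposite strand and the transcript Gm17108 (4598 UMIs) on its own strand, so reads in the overlap with Gm17108 are uncertain.

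Akr1c14, the 3-alpha-hydroxysteroid dehydrogenase gene (chr13:4049011-4090688, plus strand), was nearly absent from the counts, with 67 UMIs in 123913 nuclei. Endothelial cells held 29 of them, 43.3%, in 27 of 1165 nuclei and 13 of 15 mice, at 10.6 CPM ± 10.8 (SD, n = 15). Vascular leptomeningeal cells followed with 1.91 CPM ± 2.18 (n = 15, 10 UMIs), and dentate granule neurons also held 10 UMIs among 35229 nuclei. The other 24 classes were all below 1 CPM, and 14 classes had none. No Akr1c14 UMI was found in 29859 oligodendrocytes, which, with 3 counts as the limit that a count of 0 allows, leaves a share of up to 0.01005% of nuclei with a UMI. Over the classes as a whole, endothelial cells had 7.91 CPM of Akr1c14, which is 214.5-fold the 0.0369 CPM that 3 UMIs would give in oligodendrocytes. The counting error of the 29 endothelial UMIs is not in that ratio, so the ratio is not a lower bound. In smaller classes without a UMI the limit was higher, 3.41 CPM in ependymal cells, 3.05 CPM in border-associated macrophages and 2.16 CPM in pericytes or smooth muscle. A level above that of leptomeningeal cells is thus not excluded there. Akr1c genes are close copies of each other, so some reads could be hard to assign to 1 of them, which can affect the count.

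The 2 enzymes of allopregnanolone synthesis were rarely counted in the same nucleus. A Srd5a1 UMI was in 8 of the 1165 endothelial nuclei and none of these had Akr1c14, and the same count of 0 held for the 16 and 10 leptomeningeal nuclei with a UMI of each gene. In all kept nuclei, 7242 had Srd5a1, 64 had Akr1c14 and 1 had both. At these depths few joint detections could be seen, and RNA outside the nucleus was not measured. Of the other Akr1c genes, Akr1c18, known to inactivate progesterone, was highest in GABAergic neurons at 2.84 CPM ± 2.40 (n = 15). Akr1c21 was highest in choroid plexus epithelium at 3.18 CPM ± 4.31 (n = 13). Akr1c13, with 76 UMIs in all, was highest in border-associated macrophages at 4.81 CPM ± 12.2 (n = 14), followed by astrocytes at 0.953 CPM ± 0.744. Akr1c6, Akr1c12, Akr1c19 and Akr1c20 had 22, 10, 38 and 29 UMIs in all. Of the other 5-alpha-reductases, Srd5a2 had 169 UMIs in all nuclei and Srd5a3, which acts in protein glycosylation, was highest in microglia at 10.8 CPM ± 4.09.

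Cyp7b1, the oxysterol and steroid hydroxylase gene (chr3:18071950-18243338, minus strand), was highest in dentate granule neurons. They held 161492 of its UMIs, 71.2% of all, in 28.4% of the nuclei, at 504 CPM ± 54.9 (SD, n = 15, range 378 to 592 CPM). Pericytes or smooth muscle had 400 CPM ± 118 (569 UMIs), astrocytes 364 CPM ± 34.9 (12652 UMIs), vascular leptomeningeal cells 241 CPM ± 47.6 and neuroblasts or progenitors 229 CPM ± 82.3. Among the other neurons, CA3 had 197 CPM ± 26.3, CA2 153 CPM ± 22.7, CA1 83.0 CPM ± 12.0, GABAergic neurons 36.3 CPM ± 6.81 and thalamic excitatory neurons 36.2 CPM ± 6.32. Dentate granule neurons were above astrocytes in 15 of 15 mice by a median of 1.40-fold, above CA3 neurons in 15 of 15 by 2.56-fold, above thalamic neurons in 15 of 15 by 13.4-fold, and above pericytes in 14 of 15. Only the step from astrocytes to leptomeningeal cells exceeded the larger SD of the neighbouring classes.

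Levels in other classes were set beside those of the 7 dentate markers there, since free RNA of dentate granule neurons can be counted in any nucleus. In CA3 neurons Cyp7b1 was at 39.0% of its dentate level while the markers were at 1.59 to 3.75% of theirs, and in CA2 neurons it was at 30.3% against 1.64 to 3.79%. Pericytes had 79.4% against at most 35.6%, and oligodendrocyte precursor cells 34.8% against at most 17.5%. Thalamic neurons, at 7.19%, lay within the range of the markers, 1.50 to 48.6% with a median of 5.48%. So did astrocytes, at 72.1% against 4.4 to 86.5% (median 13.1%), and oligodendrocytes, at 9.67% against 4.52 to 73.7% (median 15.1%). Microglia, at 13.9% against 8.11 to 23.2% (median 18.9%), also lay within their marker range. Neuroblasts or progenitors did too, at 45.4% against 20.3 to 167.7% (median 29.6%). A marker above its dentate level, as the one at 167.7%, is not particular to dentate granule neurons. The top of a range can thus be a marker that the class makes itself. A place within a range therefore does not tell free RNA from RNA of the class. The part of free RNA in these levels was not tested. Among nuclei thinned to 1000 UMIs, 36.9% of dentate granule neurons had a Cyp7b1 UMI, 27.6% of astrocytes, 4.91% of oligodendrocytes and 3.72% of thalamic neurons. Without thinning the shares were 84.6%, 59.6%, 11.7% and 33.3%.

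Cyp19a1, the aromatase gene (chr9:54165937-54268110, minus strand), was at the edge of detection, with 192 UMIs in all. Dentate granule neurons held 140 of them, at 0.452 CPM ± 0.122 (SD, n = 15), and a UMI was in 0.341% (95% exact interval 0.283 to 0.407%) of those nuclei. GABAergic neurons had 0.200 CPM ± 0.212 (10 UMIs) and thalamic excitatory neurons 0.111 CPM ± 0.134 (11 UMIs). Cyp19a1 had no UMI in 12 classes and did not reach 1 CPM in any of the 26.

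**Figure D1:**
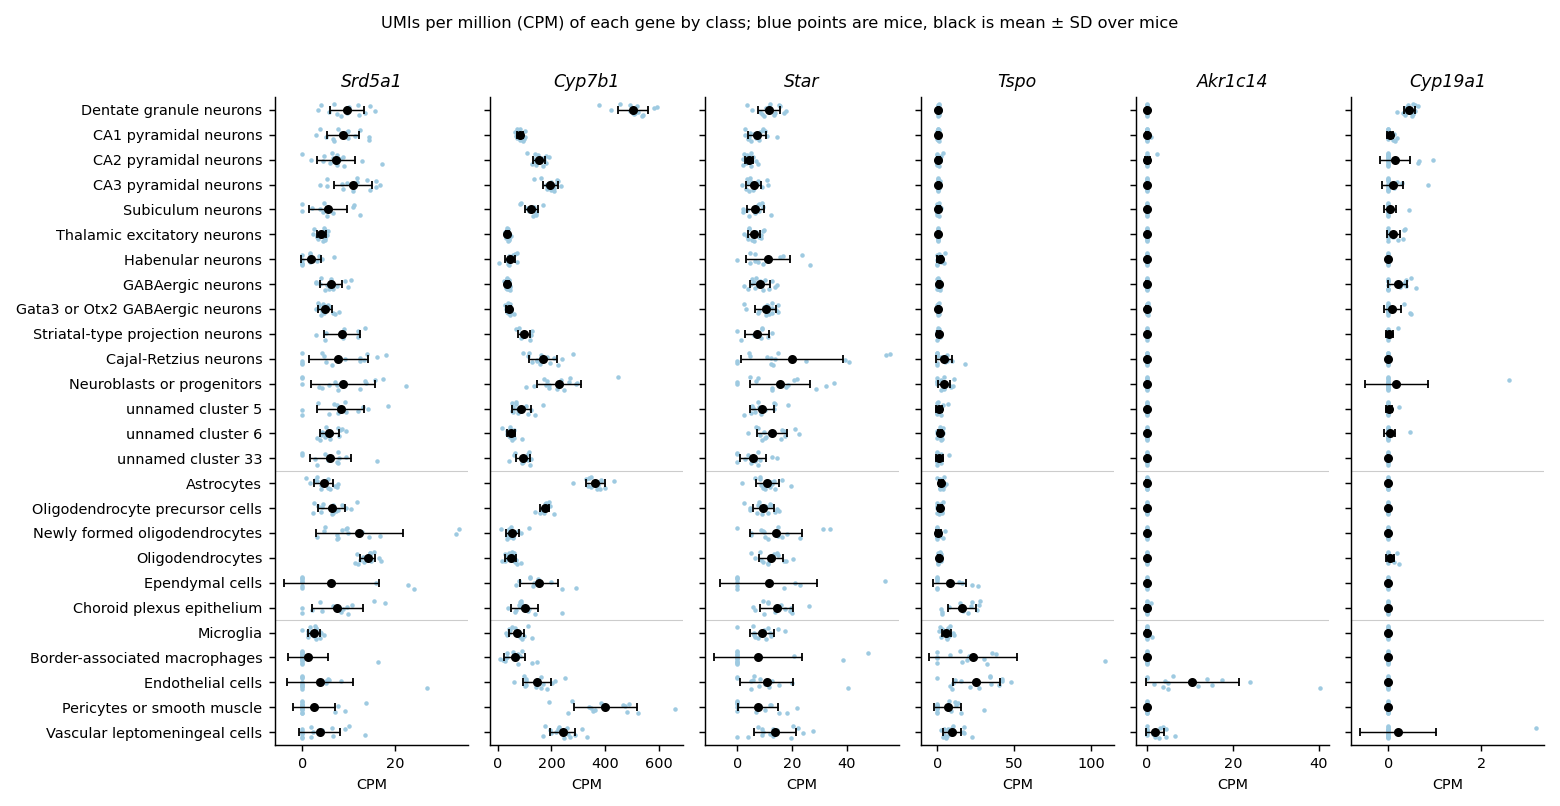
Mean level of each of the 6 genes in the 26 classes of nuclei, in CPM, with bars for the SD over mice and each panel on its own axis. Srd5a1 is led by oligodendrocytes at 14.0 CPM, Akr1c14 by endothelial cells at 10.6 CPM, Cyp7b1 by dentate granule neurons at 504 CPM, and Star is spread from 4.26 to 20.1 CPM.

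Genes with the most similar order over the 26 classes were listed by Pearson's r on log2(CPM + 1) of the class means, as a description in which the classes share libraries and depth. For Srd5a1 they were Nipa1 (r = 0.762), Dot1l (0.750) and Map7 (0.725), of which Nipa1 and Map7 were highest in oligodendrocytes. The nearest to Akr1c14 were Fmo2 (0.992), Tbx1 (0.975) and Unc45bos (0.955), each highest in endothelial cells. Akr1c14 was under 1 CPM in 24 of the 26 classes. Its r thus rests mainly on the endothelial and leptomeningeal levels and is not comparable with that of the other genes. Cyp7b1 was followed by Tnfrsf19 (0.745), Gm46123 (0.739) and Kbtbd11 (0.727), and Tspo by Ifih1 (0.928), Bst2 (0.924) and Slc12a7 (0.916). Star had Gm12592 (0.864), Immp1l (0.849) and Gm49602 (0.836).

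The groups were compared to ask whether reproductive experience, and stress during it, left these genes at another level. No member was called different between groups in any class. Tests were run with edgeR on counts summed per mouse and class, in the 24 classes with at least 3 mice in every group, and a call was an adjusted p under 0.05 over all genes of a class. A filter on low counts left 44 pairs of a member and a class, 23 for Cyp7b1, 11 for Star, 8 for Srd5a1 and 1 each for Tspo and Cyp19a1, both in dentate granule neurons, and none for Akr1c14. In each of the 3 comparisons 0 of the 44 pairs were called and 1 had an unadjusted p under 0.05, which is 2.27%. Over all genes and classes, the called share was 0% for control RE minus NP, 0% for stress RE minus control RE and 0% for stress RE minus NP, of 214618 pairs each, and 3.17%, 2.44% and 3.61% had an unadjusted p under 0.05. DESeq2, the tool of the study, called no member either, with 2, 1 and 1 unadjusted p under 0.05 among 87, 91 and 91 pairs. Of the 366075, 382182 and 382182 pairs that it tested over all genes, it called 0.00492%, 0.00157% and 0.000262%. The study listed genes from its summed counts by another rule, a DESeq2 p under 0.05 with a cutoff on fold change. It also corrected for free RNA and removed clusters from outside the dHF, so the calls here are not set against its own.

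The sign of the log2 difference was positive in 35 of the 44 pairs for control RE minus NP, with a median of 0.19, and negative in 32 of 44 for stress RE minus control RE, with a median of −0.13. For stress RE minus NP it was positive in 26 of 44, with a median of 0.06. Over all 214618 pairs 49.25%, 49.44% and 49.8% were positive in the 3 comparisons, with medians of −0.004, −0.002 and −0.001. Batch 1 held no control RE mouse, and with a batch term 27, 17 and 19 of the 44 were positive, with medians of 0.05, −0.06 and −0.02. The first and second comparison share the 4 control RE mice, as the others share the NP or stress RE mice, and genes and classes of a mouse share a library, so these counts are not independent of each other.

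Counts summed over all kept nuclei, the whole punch, gave the same number of calls. Fewer nuclei of a class and less RNA per nucleus cannot be told apart there. All members but Akr1c14 passed the edgeR filter, and 0 of 5 were called in each comparison, with 0 unadjusted p under 0.05. DESeq2 tested 5, 6 and 6 members and also called 0, with 0 unadjusted p under 0.05. Of 21159 genes, edgeR called 0.00473% for control RE minus NP, 0% for stress RE minus control RE and 0% for stress RE minus NP. DESeq2 called 0.118% of 21978 genes, 0% of 26011 and 0.00384% of 26011 in the same order. Log2 differences of control RE minus NP were 0.37 (SE 0.25) for Srd5a1, 0.26 (SE 0.21) for Cyp7b1, 0.26 (SE 0.30) for Star, −0.12 (SE 0.33) for Tspo and 0.35 (SE 0.32) for Cyp19a1. Stress RE minus control RE gave −0.24, −0.17, −0.22, 0.02 and −0.32 in the same order, and stress RE minus NP 0.13, 0.09, 0.04, −0.11 and 0.04.

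**Figure D2:**
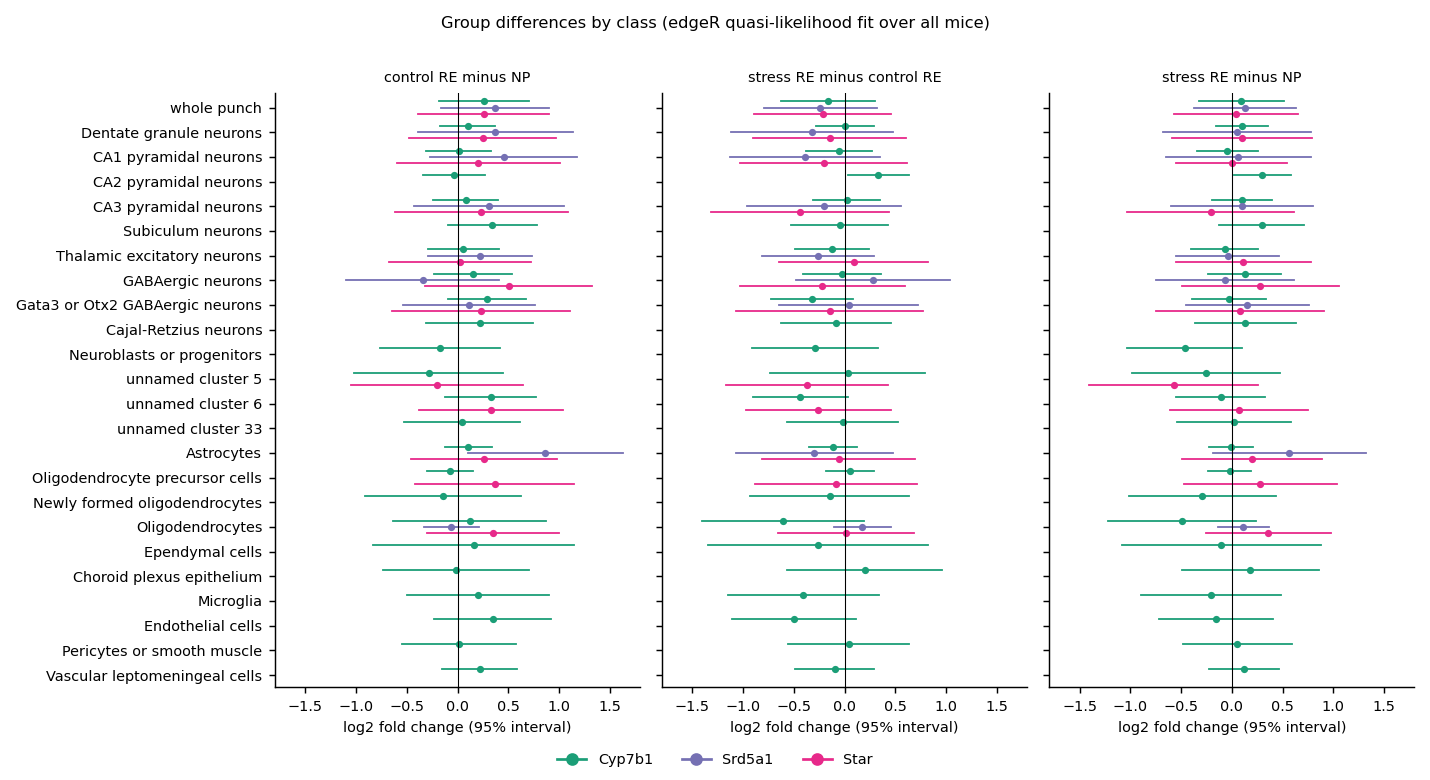
Log2 differences of Cyp7b1, Srd5a1 and Star between groups in the classes where they were tested and in the whole punch, from edgeR, with bars for the 95% interval and a panel for each comparison. The intervals of Srd5a1 in astrocytes for control RE minus NP (0.10 to 1.63) and of Cyp7b1 in CA2 neurons for stress RE minus control RE (0.03 to 0.64) and stress RE minus NP (0.02 to 0.58) lie off 0 before adjustment over all genes.

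Srd5a1 in oligodendrocytes ran from 11.8 to 15.5 CPM in NP mice with a median of 14.3 CPM. It stood at 13.0, 14.8, 13.3 and 11.3 CPM in the 4 control RE mice and at 14.6, 16.6, 14.7, 16.9 and 12.0 CPM in the 5 stress RE mice. The 3 groups overlapped, and the highest value was a stress RE mouse of batch 2. The log2 difference was −0.06 (SE 0.13, 95% interval −0.33 to 0.21) for control RE minus NP, 0.18 (SE 0.13, −0.11 to 0.46) for stress RE minus control RE and 0.11 (SE 0.12, −0.14 to 0.37) for stress RE minus NP, so the bound farthest from 0 was 0.46.

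In dentate granule neurons, where Srd5a1 had the most UMIs, mice spread more. NP mice ran from 3.94 to 14.5 CPM with a median of 8.23 CPM, control RE mice stood at 9.70, 15.55, 7.36 and 12.1 CPM, and stress RE mice at 10.1, 3.35, 13.4, 9.68 and 8.32 CPM. The groups overlapped, and the 3 mice of batch 1 were at 6.90, 3.94 and 3.35 CPM. Control RE minus NP was 0.37 (SE 0.36, 95% interval −0.39 to 1.14) on the log2 scale, but on log2(CPM + 1) it was 0.33 within batch 2 and −0.11 within batch 3. Stress RE minus control RE was −0.32 (SE 0.37), with −0.56 within batch 2 and 0.42 within batch 3. The part of the batch in these differences was not tested.

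Astrocytes gave the only Srd5a1 difference with an unadjusted p under 0.05. Their NP values ran from 0.728 to 5.57 CPM with a median of 3.09 CPM, the control RE values were 5.13, 7.68, 5.42 and 6.03 CPM, and the stress RE values 4.65, 1.54, 7.02, 7.38 and 4.06 CPM. NP and control RE mice overlapped by a single NP mouse, and the groups rest on 49, 58 and 52 UMIs. Control RE minus NP was 0.87 on the log2 scale (SE 0.36, 95% interval 0.10 to 1.63, adjusted p = 0.9995 by edgeR), with 0.60 within batch 2 and 0.54 within batch 3 on log2(CPM + 1). It did not pass the threshold. Stress RE minus NP was 0.57 on the log2 scale (SE 0.36), against −0.073, 0.34 and 0.64 within batches 1, 2 and 3 on log2(CPM + 1).

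Cyp7b1 in dentate granule neurons ran in NP mice from 378 to 583 CPM with a median of 505 CPM. Control RE mice were at 507, 493, 507 and 539.5 CPM, and stress RE mice at 592, 420, 513, 502 and 537 CPM. The groups overlapped, and both the lowest value, in an NP mouse, and the lowest of the stress RE mice came from batch 1. The log2 difference was 0.10 (SE 0.13, 95% interval −0.17 to 0.37) for control RE minus NP and 0.00 (SE 0.13, −0.28 to 0.29) for stress RE minus control RE. For stress RE minus NP it was 0.10 (SE 0.12, −0.15 to 0.36). Within batches 2 and 3 control RE minus NP was −0.05 and −0.04 on log2(CPM + 1).

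In astrocytes Cyp7b1 had a narrow spread. NP mice ran from 329 to 384 CPM with a median of 360 CPM, control RE mice were at 373, 372, 398 and 371 CPM, and stress RE mice at 434, 282, 337, 347 and 382 CPM. The stress RE mice held both the highest and the lowest value, and the groups overlapped. Differences were 0.11 (SE 0.11), −0.12 (SE 0.11) and −0.01 (SE 0.10) on the log2 scale for the 3 comparisons in the order given above.

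CA2 pyramidal neurons, a small field between CA3 and CA1, gave the remaining unadjusted p under 0.05, both for Cyp7b1. NP values ran from 109.5 to 180 CPM with a median of 146 CPM, control RE mice were at 134, 142, 127 and 144 CPM, and stress RE mice at 190, 172, 149, 178 and 167 CPM. Stress and control RE mice did not overlap, in a comparison in which 0% of all pairs were called and 1.36% of all pairs had groups without overlap. NP mice overlapped both groups. This was 1 of the 44 tested pairs of a member and a class in that comparison, and 0 of 44 lacked overlap in the other comparisons, where the share over all pairs was 0.9% for control RE minus NP and 0.516% for stress RE minus NP. Among pairs under the filter, groups also lacked overlap for Srd5a1 in CA2 neurons and Star in endothelial cells (control RE above NP), Srd5a1 in ependymal cells (5 UMIs in stress RE against 0 in either other group) and Star in subiculum neurons (stress RE below NP). With those counted, 2 of 144 pairs of a member and a class lacked overlap in each comparison. The shares over all pairs cover only pairs that passed the filter, and none was computed for pairs under it. Stress RE minus control RE was 0.33 on the log2 scale (SE 0.15, 95% interval 0.03 to 0.64, adjusted p = 0.9999 by edgeR), with 0.27 within batch 2 and 0.37 within batch 3. Stress RE minus NP was 0.30 (SE 0.14, adjusted p = 0.6986 by edgeR), against 0.47, 0.11 and 0.11 within batches 1, 2 and 3 on log2(CPM + 1). Neither passed the threshold.

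Star in dentate granule neurons ran from 3.66 to 15.7 CPM in NP mice with a median of 11.3 CPM. Control RE mice had 10.7, 17.7, 9.03 and 13.2 CPM and stress RE mice 11.4, 5.40, 17.0, 13.9 and 9.75 CPM, so the groups overlapped. The control RE minus NP difference was 0.25 (SE 0.34) on the log2 scale, stress RE minus control RE −0.15 (SE 0.35) and stress RE minus NP 0.10 (SE 0.32). With a batch term the first and the last turned to −0.021 and −0.022. Within batch 3 the second of these had the other sign, 0.46 on log2(CPM + 1), against −0.36 within batch 2. In oligodendrocytes Star differed by 0.35 (SE 0.31), 0.01 (SE 0.32) and 0.36 (SE 0.29) in the same order.

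Tspo and Akr1c14 in endothelial cells did not pass the filter and rest on few UMIs. Tspo ran from 0 to 41.8 CPM in NP mice with a median of 34.3 CPM, stood at 41.9, 10.0, 21.3 and 26.9 CPM in control RE mice and at 11.6, 48.1, 40.3, 7.90 and 9.69 CPM in stress RE mice, on 56, 25 and 18 UMIs. Akr1c14 ran from 0 to 13.9 CPM in NP mice with a median of 3.94 CPM, stood at 4.19, 5.01, 3.87 and 40.3 CPM in control RE mice and at 17.4, 24.04, 15.1, 11.8 and 4.85 CPM in stress RE mice, on 10, 7 and 12 UMIs. All groups overlapped for both genes. Without the filter, stress RE minus NP was 1.05 (SE 0.73, 95% interval −0.38 to 2.49) for Akr1c14 and −0.67 (SE 0.47, −1.58 to 0.25) for Tspo, and these wide intervals leave both directions possible. The share of endothelial nuclei in a mouse was 0.343 to 1.84% over the 3 groups.

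Cyp19a1 in dentate granule neurons ran from 0.189 to 0.636 CPM in NP mice with a median of 0.479 CPM, with 0.446, 0.583, 0.529 and 0.363 CPM in control RE and 0.400, 0.546, 0.345, 0.325 and 0.520 CPM in stress RE mice. The groups overlapped on 47, 47 and 46 UMIs. The differences were 0.17 (SE 0.30), −0.13 (SE 0.31) and 0.04 (SE 0.30) on the log2 scale.

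**Figure D3:**
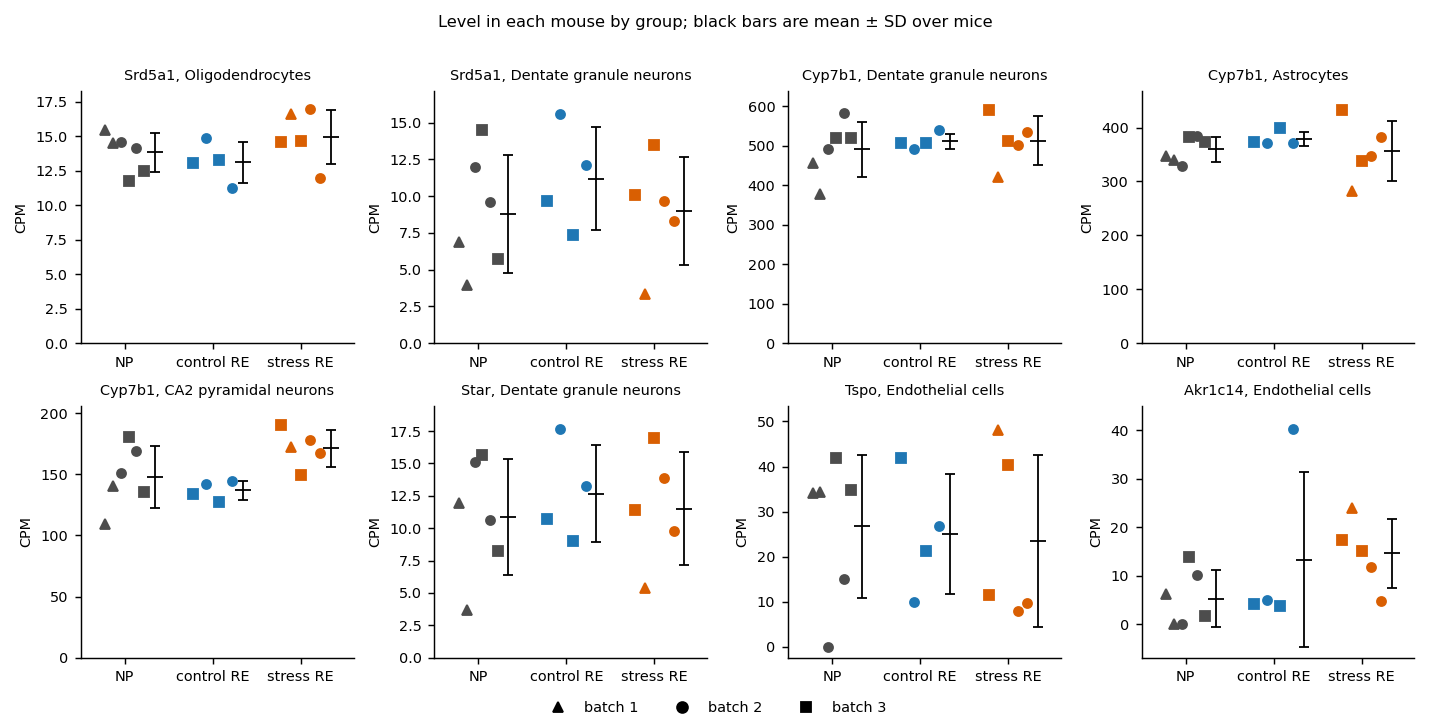
Levels in 8 pairs of a member and a class, in CPM, 1 point per mouse, with a marker shape for each batch and a black bar for the mean ± SD of each group. The groups overlap in every panel except Cyp7b1 in CA2 neurons, where the 5 stress RE mice (149 to 190 CPM) lie above the 4 control RE mice (127 to 144 CPM).

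The wider pathway held 68 genes with the members, of which 66 had a row. In the classes, 44 of them passed the filter in at least 1 class, and of 450 pairs of a gene and a class 0 were called in each comparison, with 20, 18 and 17 unadjusted p under 0.05 (4.44%, 4.00% and 3.78%, against 3.17%, 2.44% and 3.61% of all pairs). Of the 450 differences 184, 253 and 210 were positive, which is 40.89%, 56.22% and 46.67% against 49.25%, 49.44% and 49.8% of all pairs, with medians of −0.06, 0.04 and −0.01. In the whole punch 49 were tested and 0 were called. In the list for cholesterol delivery, Vdac1, a channel of the outer mitochondrial membrane, was at 56.8 CPM ± 10.7 in the whole punch (SD, n = 15), Stard3 was highest in microglia at 95.3 CPM ± 11.3, and Dbi, which encodes a ligand of TSPO, was highest in ependymal cells at 426 CPM ± 253 (n = 10) and next in oligodendrocytes at 83.8 CPM ± 30.6. Among the genes for progestagen and corticoid synthesis, Por, the electron donor of microsomal cytochromes, was highest in vascular leptomeningeal cells at 269 CPM ± 57.1, while Hsd3b2 and Hsd3b6 were highest in subiculum neurons at 6.78 CPM ± 5.82 and 3.47 CPM ± 5.40 (n = 12).

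The other lists are described the same way. For oxysterols, Cyp46a1, which hydroxylates cholesterol in neurons, was highest in thalamic excitatory neurons at 63.5 CPM ± 19.5, and Cyp27a1 in border-associated macrophages at 146.5 CPM ± 62.7 (n = 14) and oligodendrocytes at 74.7 CPM ± 13.2. Of the genes that interconvert oestrogens and androgens, Hsd17b12 led in border-associated macrophages at 98.95 CPM ± 39.3, and Hsd17b4 and Hsd17b11 in microglia at 73.5 CPM ± 17.2 and 43.5 CPM ± 10.6. On the list for sulfation, Slco1c1, a transporter of thyroid hormone and conjugated steroids, was at 710 CPM ± 221 in endothelial cells, Sumf1, which activates sulfatases, at 68.4 CPM ± 36.7 in border-associated macrophages, and Sult4a1 at 46.3 CPM ± 25.8 in an unnamed cluster (n = 14). Of the receptors, Paqr8, a membrane progestin receptor, reached 810 CPM ± 112 in astrocytes, and Paqr9 45.0 CPM ± 6.03 in dentate granule neurons. The smallest p of the wider pathway was that of Pgrmc1 in an unnamed cluster, with 0.85 for stress RE minus control RE on the log2 scale (SE 0.19, adjusted p = 0.9999 by edgeR), a gene named for that value.

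Mice with a high level of Star also had a high level of Srd5a1. These relations were chosen after the values had been seen, so their p-values describe the same observation and are no independent support for it. In all 8 were computed, with 100000 permutations of the mice without regard to batch, of which 1e-05 is the smallest p they can give. Star and Srd5a1 in the whole punch had r = 0.959 (rho = 0.95, permutation p = 1e-05 and adjusted p = 2.7e-05 for both) over 15 mice. Without the 2 mice farthest from the median of Star r was 0.934, and it was 0.936 within batch 2 and 0.958 within batch 3 (6 mice each, while batch 1 has 3). Star in the whole punch and Srd5a1 in dentate granule neurons had r = 0.976 (rho = 0.971, permutation p = 1e-05, adjusted p = 2.7e-05).

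For Srd5a1 in oligodendrocytes no such relation was detected, and the difference between the correlations was not tested. Star in the whole punch and Srd5a1 in oligodendrocytes had r = −0.173 (permutation p = 0.54) and rho = 0.020 (permutation p = 0.95), with r = 0.117 without the 2 farthest mice, 0.278 within batch 2 and 0.049 within batch 3. Star itself had r = 0.878 (rho = 0.825, permutation p = 2e-05 and 0.00021) between dentate granule neurons and oligodendrocytes. Srd5a1 had r = −0.245 (rho = −0.148, permutation p = 0.38 and 0.60) between those classes, and 0.099 and 0.075 within batches 2 and 3. Many transcripts moved with Star over the mice, since 599 of 11816 genes (5.07%) had r over 0.9 with it, and 33.1% of these with a known type were protein coding, against 90.9% of all genes compared. For Srd5a1 the numbers were 529 genes (4.48%) and 29.8%, and for Cyp7b1 32 genes. Total UMIs had r = 0.342 with Star (rho = 0.089, permutation p = 0.21 and 0.75), but 0.016 without the 2 farthest mice, −0.439 within batch 2 and −0.559 within batch 3. Many noncoding transcripts thus moved with Star and Srd5a1 from mouse to mouse, and the part of such variation between libraries in the levels of both genes was not tested.

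**Figure D4:**
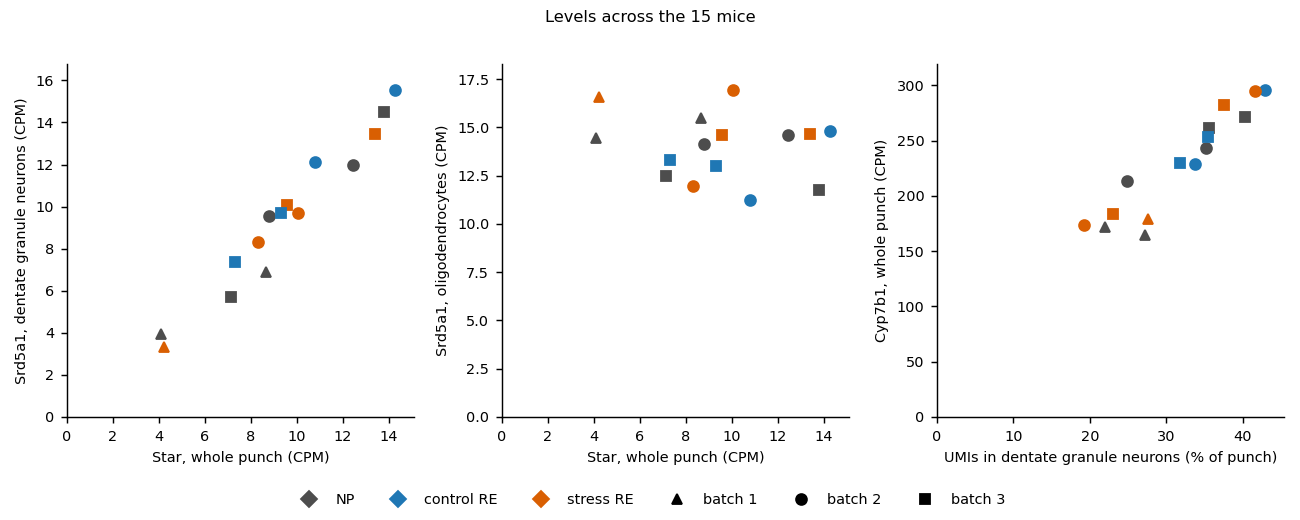
Levels of members in 15 mice in CPM, 1 point per mouse, with a color for each group and a marker shape for each batch. Srd5a1 in dentate granule neurons is high where Star in the whole punch is high (r = 0.976), Srd5a1 in oligodendrocytes stays between 11.3 and 16.9 CPM, and Cyp7b1 in the whole punch is plotted against the percent of UMIs that come from dentate granule neurons (r = 0.934).

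Cyp7b1 in the whole punch followed the share of UMIs from dentate granule neurons, with r = 0.934 (rho = 0.936, permutation p = 1e-05, adjusted p = 2.7e-05), 0.971 within batch 2 and 0.966 within batch 3. As those neurons hold most of its UMIs, this is a relation of a part to its whole. A rise was thus built in, and the permutation p adds no support to it. Within dentate granule neurons, Cyp7b1 had r = 0.834 with the total UMIs of the library (rho = 0.682, permutation p = 0.00020 and 0.0064, adjusted p = 0.00032 and 0.010). It was 0.704 without the 2 farthest mice, 0.472 within batch 2 and 0.648 within batch 3, and the part of depth in the Cyp7b1 level was not tested.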

How the data were processed

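Single-nucleus libraries of dHF micropunches from 6 NP, 4 control RE and 5 stress RE mice were grouped by the group label of each sample. For each library the authors deposited UMI counts per barcode for 32285 features as whole numbers, without correction for free RNA or doublets. The counts were made with Cell Ranger against the mm10 (GRCm38) reference. The submitters' notes name Cell Ranger 7.1.0 and the file headers an earlier version. Libraries held 40602582 to 96211264 UMIs.

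A barcode was kept if it had 200 genes or more and mitochondrial UMIs made up no more than 5%, and those with the highest doublet scores of Scrublet in scanpy 1.11.5 were dropped, at 0.8% per 1000 barcodes. Nuclei were clustered on 2000 variable genes, without the members and the other pathway genes, by the Leiden method at resolution 1 (igraph 0.11.9) on 15 neighbours in 30 principal components. Clusters were named from marker lists by thresholds chosen with the clusters in view. Counts were summed per mouse and class, for mice with at least 10 nuclei, in classes with at least 3 such mice per group. All 3 groups entered a single quasi-likelihood fit of edgeR 4.0.16 under R 4.3.3, after filterByExpr and TMM scaling, with Benjamini-Hochberg adjustment over all genes of a class and a threshold of 0.05. DESeq2 1.42.0, other scaling, no filter, a batch term, other minimums, leaving out each mouse and, added after the data were seen, leaving out batch 1 were the alternatives. The tests were tried on simulated data. Scripts ran in Python 3.11.15 with pandas 2.3.3, numpy 2.4.6 and matplotlib 3.10.9.

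The members and gene lists were chosen with earlier results of these data known. The genes named are the members, their 3 nearest genes over classes, the 3 highest of each pathway list, paralogues of members and any pathway gene called. 1 gene that this rule names is not reported here. Gene positions are from GRCm38, and promoter sequences from RefSeq (GRCm38.p6), which matched 3 of the members. A mouse is the replicate.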

Additional observations from a re-analysis of the deposited data

Results flagged for a closer look

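In groups of 4 to 6 mice, 54 sets of values of a member were examined for a mouse far from the others, and 3 had such a mouse. About 1 in 20 sets would have it by chance. For Cyp7b1 in astrocytes, control RE mouse 87 of batch 3 had 398.3 CPM (1396 UMIs), against 372.7 CPM in the nearest of the other 3 control RE mice. For Akr1c14 in endothelial cells, control RE mouse 88 of batch 2 had 40.32 CPM on 3 UMIs, against 5.012 CPM in the nearest control RE mouse. For Akr1c14 in the whole punch, NP mouse 37 of batch 3 had 0.1603 CPM on 10 UMIs, against 0.07869 CPM in the nearest NP mouse.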

How the results depend on the processing

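No member was called under any of 22 alternative settings (3562 fits, smallest adjusted p = 0.3851 by edgeR or DESeq2), nor was any pathway gene (35996 fits with the members, smallest adjusted p = 0.1067). No paired analysis was possible because the labels carry no replicate numbers and those used here only follow accession order. Levels by class stayed within the spread between mice, except Cyp19a1 in dentate granule neurons, 0.452 CPM from summed counts and 0.576 CPM as a mean over nuclei. Some differences took the other sign in other fits, and the cause was not tested. With a batch term, control RE minus NP was 0.002 for Srd5a1 in oligodendrocytes, −0.02 for Cyp7b1 and −0.021 for Star in dentate granule neurons, and stress RE minus NP was −0.103 for Srd5a1 and −0.022 for Star in dentate granule neurons. Without the mice of batch 1, stress RE minus NP was −0.019 for Srd5a1 in dentate granule neurons, 0.007 for Cyp7b1 in astrocytes and −0.053 in the whole punch, and control RE minus NP was −0.03 for Cyp7b1 in dentate granule neurons. Stress RE minus control RE for Cyp7b1 in dentate granule neurons was −0.015 with DESeq2, −0.016 with RLE scaling and −0.002 without a filter. With 1 mouse left out, control RE minus NP ran from −0.126 to 0.001 for Srd5a1 in oligodendrocytes and from −0.124 to 0.042 for Cyp7b1 in CA2 neurons. Stress RE minus control RE ran from −0.053 to 0.064 for Cyp7b1 and from −0.32 to 0.044 for Star in dentate granule neurons. Stress RE minus NP ran from −0.115 to 0.254 for Srd5a1 and from −0.092 to 0.272 for Star in dentate granule neurons, and for Cyp7b1 from −0.093 to 0.061 in astrocytes and from −0.07 to 0.179 in the whole punch. After the filter on low counts edgeR tested Tspo and Cyp19a1 in 1 of 24 classes each, Srd5a1 in 8 and Star in 11, and Akr1c14 in none.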
